A study of Mus musculus with 44 samples.

Results

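The CTCF sites of 3 developmental domains of the mouse genome were compared between WT and *Setdb1* KO ESCs. The domains were the *Shh* domain (28.2 to 29.8 Mb of chromosome 5 in mm10, with *Shh*, *Lmbr1* and *Mnx1*), the *Wnt6*-*Ihh*-*Epha4*-*Pax3* region (74.6 to 78.3 Mb of chromosome 1) and the *Kcnj2*-*Sox9* region (110.5 to 113.8 Mb of chromosome 11). Every CTCF peak with its summit in one of these windows was taken, which gave 161 of the 44241 peaks of the WT list and 199 of the 59698 peaks of the *Setdb1* KO list. Peaks of the 2 lists that overlapped by at least 1 bp were joined into 1 site, and the 206 sites were numbered along the chromosome in each window (Shh-1 to Shh-27, Epha4-1 to Epha4-112 and Sox9-1 to Sox9-67). In mm10 *Shh* lies at chr5:28456815-28467256, *Lmbr1* at chr5:29229802-29378390, *Mnx1* at chr5:29473034-29478470, *Wnt6* at chr1:74771892-74785322, *Ihh* at chr1:74945315-74951672, *Epha4* at chr1:77367185-77515088, *Pax3* at chr1:78101267-78197134, *Kcnj2* at chr11:111066164-111076821 and *Sox9* at chr11:112782224-112787760. *Wnt6*, *Kcnj2* and *Sox9* are on the forward strand and the other genes are on the reverse strand.

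WT ESCs were TT2 cells (C57BL/6/CBA F1) of 1 clone, and *Setdb1* KO ESCs were conditional KO cells of the same strain given 4-OHT at 800 nM over 4 days to induce the deletion and collected on day 6. The authors list no separate clone for the *Setdb1* KO ESCs. Whether WT ESCs also received 4-OHT is not given in the sources used here. If they did not, an effect of 4-OHT itself cannot be told apart from that of the deletion. CTCF was immunoprecipitated from crosslinked chromatin and sequenced, and 1 peak list, from 1 library, was analysed for each condition. The spread between replicates is therefore unknown, and the conditions were compared without a test. Gene expression was not analysed here, so that the deletion itself was not checked.

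CTCF is a zinc finger protein that halts the loop-extruding cohesin complex at sites where its asymmetric motif faces the incoming complex, and boundaries of topologically associating domains often carry motifs that point away from each other. SETDB1 is a histone methyltransferase that deposits H3K9me3, a mark of heterochromatin. The 3 regions are classical models of domain structure: a limb enhancer of *Shh*, which encodes a secreted Hedgehog ligand, lies far away in an intron of *Lmbr1*, loss or inversion of the boundaries around *Epha4* brings limb enhancers to *Wnt6*, *Ihh* or *Pax3*, and duplications across the boundary between *Kcnj2* and *Sox9* change which gene the enhancers reach. Contacts were not analysed here. A boundary site therefore means a site in a span known to hold a boundary, and no boundary was measured.

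A CTCF motif of 15 bp was learned from the strongest shared peaks of the whole *Setdb1* KO list, with the consensus GCCACCAGGGGGCGC, and its G-rich strand sets the direction of a site. Matches were sought in the 50 bp on either side of a summit. Below, the reference sequence (GRCm38) of each match is given 5′ to 3′ on the strand of the motif, with the match in capitals and 15 bases of flank on each side in lower case. The coordinates are those of the match. The first set holds the 5 shared sites in the part of the *Kcnj2*-*Sox9* span nearer to *Kcnj2*, shown because the direction turns within it from reverse to forward.
Sox9-10 (chr11:111445977-111445991, reverse strand): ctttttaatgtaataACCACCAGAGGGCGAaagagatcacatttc
Sox9-11 (chr11:111523670-111523684, reverse strand): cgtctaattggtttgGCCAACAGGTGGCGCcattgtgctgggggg
Sox9-12 (chr11:111532654-111532668, reverse strand): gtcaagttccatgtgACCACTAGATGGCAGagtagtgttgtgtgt
Sox9-13 (chr11:111536220-111536234, forward strand): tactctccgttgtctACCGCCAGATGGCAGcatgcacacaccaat
Sox9-14 (chr11:111537841-111537855, forward strand): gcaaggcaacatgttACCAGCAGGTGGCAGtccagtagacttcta

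The second set flanks the span between *Shh* and *Lmbr1*: Shh-5 and Shh-6 lie on either side of *Shh*, Shh-11 lies within *Lmbr1*, and Shh-15, the strongest site of the window, lies beyond its promoter.
Shh-5 (chr5:28451370-28451384, forward strand): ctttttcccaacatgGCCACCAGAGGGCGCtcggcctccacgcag
Shh-6 (chr5:28469947-28469961, reverse strand): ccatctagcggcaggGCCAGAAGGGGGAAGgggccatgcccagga
Shh-11 (chr5:29275548-29275562, forward strand): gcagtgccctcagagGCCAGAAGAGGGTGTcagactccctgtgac
Shh-15 (chr5:29389562-29389576, forward strand): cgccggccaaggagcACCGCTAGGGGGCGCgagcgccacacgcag

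The third set comes from both ends of the *Epha4* domain: Epha4-82 and Epha4-88 on the side of *Slc4a3*, Epha4-95 beside the *Epha4* promoter, and Epha4-97, Epha4-104 and Epha4-105 in the span towards *Pax3*.
Epha4-82 (chr1:75653739-75653753, forward strand): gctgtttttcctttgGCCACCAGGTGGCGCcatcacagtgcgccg
Epha4-88 (chr1:75925913-75925927, forward strand): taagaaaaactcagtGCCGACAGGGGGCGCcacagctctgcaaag
Epha4-95 (chr1:77516444-77516458, reverse strand): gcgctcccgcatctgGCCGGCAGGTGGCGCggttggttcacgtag
Epha4-97 (chr1:77589624-77589638, reverse strand): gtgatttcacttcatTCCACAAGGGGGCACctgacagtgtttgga
Epha4-104 (chr1:77972550-77972564, reverse strand): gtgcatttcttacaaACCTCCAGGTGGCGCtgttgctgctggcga
Epha4-105 (chr1:77978881-77978895, forward strand): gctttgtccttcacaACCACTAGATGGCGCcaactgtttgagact

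The last set holds sites with a large difference between the lists: Shh-8, Sox9-3, Sox9-23 and Sox9-42 had at least 2 times the WT signal in *Setdb1* KO ESCs, and Epha4-85 and Sox9-48 were present in the *Setdb1* KO list alone.
Shh-8 (chr5:28911275-28911289, reverse strand): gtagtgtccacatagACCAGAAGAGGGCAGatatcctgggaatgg
Sox9-3 (chr11:110540578-110540592, forward strand): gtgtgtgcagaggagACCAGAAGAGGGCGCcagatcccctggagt
Sox9-23 (chr11:112559859-112559873, reverse strand): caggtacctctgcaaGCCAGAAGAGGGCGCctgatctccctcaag
Sox9-42 (chr11:113397587-113397601, reverse strand): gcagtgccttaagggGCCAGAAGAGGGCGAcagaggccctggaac
Epha4-85 (chr1:75741839-75741853, forward strand): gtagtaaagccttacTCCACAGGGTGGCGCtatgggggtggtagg
Sox9-48 (chr11:113456470-113456484, reverse strand): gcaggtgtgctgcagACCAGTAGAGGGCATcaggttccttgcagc

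Most of the sites of the 3 domains were present in both lists. Of the 199 *Setdb1* KO peaks, 151 overlapped a WT peak and 48 were KO-only (24.1%, Wilson 95% interval 18.7-30.5%), against 28.8% over the whole list. Of the 161 WT peaks, 7 were WT-only (4.35%, 2.12-8.70%), against 3.22% over the whole list. The KO-only share was 10 of 27 peaks in the *Shh* window (37.0%, 21.5-55.8%), 27 of 107 in the *Epha4* window (25.2%, 18.0-34.2%) and 11 of 65 in the *Sox9* window (16.9%, 9.72-27.8%). The intervals of the 3 windows overlap, and the order of the windows depended on the peaks kept. As an alternative, peaks of either list with a fold enrichment under 5 were left out and the lists were matched anew. A *Setdb1* KO peak whose WT partner was left out then counts as KO-only, such as Shh-4 (fold enrichment 4.83 in WT and 13.8 in KO). The share was then 4 of 17 in the *Shh* window (23.5%), 18 of 84 in the *Epha4* window (21.4%) and 14 of 62 in the *Sox9* window (22.6%, with an interval up to 34.4%). Over the genome it was 26.5%. The *Sox9* interval lay below the share of the whole list with all peaks but included it at that threshold. No WT peak of the *Shh* window was missing from the *Setdb1* KO list (0 of 18, which allows a share of up to 16.7% when the limit of a count of 0 is set at 3 counts).

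The pileup, the number of fragments that overlap the summit, was the measure of signal at a site. It was not scaled for depth, which was close in the libraries (27.4 M tags for WT and 27.6 M for *Setdb1* KO). A pair of peaks, 1 from each list, was available at 148 sites. The median WT pileup of these sites was 38.5 fragments (range 12 to 135) and the median *Setdb1* KO pileup was 55.5 (16 to 156). The pileup was higher in *Setdb1* KO ESCs at 134 sites, lower at 13 and equal at 1. Over all 41876 pairs of the genome 90.8% were higher and 7.41% lower in *Setdb1* KO ESCs, so that the direction at these sites is that of the list as a whole.

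The median *Setdb1* KO to WT ratio of the 148 sites was 1.35 (quartiles 1.17 and 1.61), against 1.36 (1.17 and 1.61) over the genome. It was 1.41 in the *Shh* window (n = 16), 1.28 in the *Epha4* window (n = 78) and 1.49 in the *Sox9* window (n = 54). The ratio of the summed pileups was 1.32 (95% interval for counting error 1.20-1.44) in the *Shh* window, 1.29 (1.24-1.35) in the *Epha4* window and 1.46 (1.38-1.54) in the *Sox9* window. These intervals do not overlap between the *Epha4* and *Sox9* windows, but they hold counting error alone and not the spread between cultures. At 45 sites the exact interval of the ratio lay above 1, which is 30.4% of 148 against 31.5% over the genome. At none did it lie below 1, as at all but 21 of the 41876 pairs of the genome. At 8 sites it lay above the genome median (5.49% over the genome) and at 4 below it (2.28%).

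**Figure D1:**
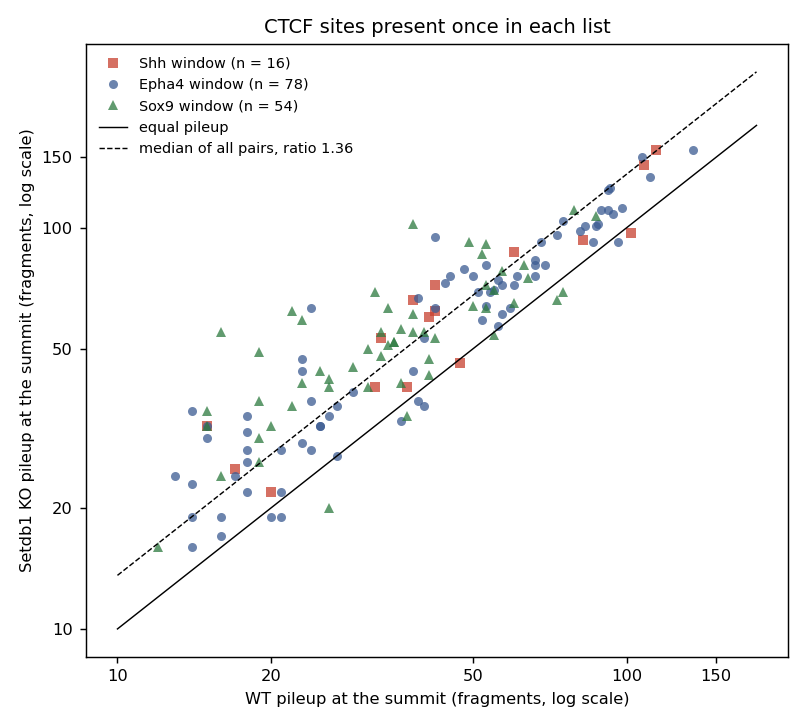
Pileup at the summit in *Setdb1* KO ESCs (y axis, fragments, log scale) against WT ESCs (x axis, fragments, log scale) for the 148 sites with 1 peak in each list, by window. The solid line marks equal pileups and the dashed line the median ratio of all pairs of the genome, 1.36. Most points lie above the solid line, and the strong sites lie closer to it than many of the weak ones.

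Sites with little CTCF in WT ESCs had the higher ratios, as in the rest of the genome. The median ratio was 1.59 at the 42 sites with a WT pileup under 25 (genome 1.50), 1.47 at the 50 sites with 25 to 49 fragments (genome 1.41) and 1.23 at the 56 sites with 50 or more (genome 1.28). Since a low WT pileup enters the ratio itself, this order is a description only. At the weakest class the windows ranged from 1.44 in the *Epha4* window (n = 25) to 1.86 in the *Sox9* window (n = 14), while at the strongest class they ranged from 1.21 (*Epha4*, n = 36) to 1.32 (*Shh*, n = 5). The KO-only peaks were weak too: their median pileup was 16 fragments (range 9 to 45), against 18 for KO-only peaks of the genome. A KO-only peak may hold WT signal too low to be listed: a pileup under 9 would not have been listed at the lowest background of the WT peaks of the windows, and one under 19 at the highest.

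In the *Shh* domain, the sites around *Shh* were shared. Shh-5, the only site between *Shh* and the next gene on its outer side, *Rbm33*, had a pileup of 82 in WT and 93 in *Setdb1* KO ESCs (ratio 1.13, exact 95% interval 0.834-1.55). Shh-6, 2.72 kb before the *Shh* promoter in an intron of a non-coding transcript, had 42 and 72 fragments (ratio 1.71, 1.16-2.57). The motif of Shh-5 is on the forward strand and that of Shh-6, 18.6 kb away, is on the reverse strand, so that both point towards *Shh*. No peak of either list had its summit in the body of *Shh*.

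Between *Shh* and *Lmbr1*, over 762.5 kb, the WT list held 2 peaks. The first is Shh-6. The second, Shh-8, 444 kb from the *Shh* start, had 15 fragments in WT and 32 in KO (ratio 2.13, 1.12-4.24), the highest ratio among the pairs of the window. Its reference sequence is 89.1% soft-masked (repeat sequence) within 50 bp of the summit. The other 3 peaks of the span, Shh-7, Shh-9 and Shh-10, were KO-only with 13, 15 and 13 fragments, and those last 2 lie in introns of *Rnf32*. The *Setdb1* KO list thus held 5 peaks in the interior, against 2 in the WT list. The 3 KO-only peaks (60%, 23.1-88.2%, against 28.8% over the whole list) were all at the weak end of the list. WT signal too low to be listed may lie at them, and with 5 peaks the share is a description only.

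*Lmbr1*, whose intron holds the limb enhancer of *Shh*, had 3 shared sites and 1 KO-only peak in its body. Shh-12, with 102 fragments in WT and 97 in *Setdb1* KO ESCs, was the strongest of them and had the lowest ratio of the window (0.95, 0.713-1.27). No motif passed the threshold there, although a match on the reverse strand was found at the lower threshold used as an alternative. Shh-11, in the same gene, had 34 fragments at the stronger of 2 WT peaks and 73 at its single *Setdb1* KO peak (ratio 2.15, 1.41-3.33), and its summit is 92.1% masked. Shh-13 had 32 and 40 fragments (ratio 1.25, 0.766-2.06), and the KO-only Shh-14 had 18. Sites with ratios that far apart thus lay within the same gene.

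At the far end of the domain, from the promoter-side part of *Lmbr1* to *Mnx1*, the strongest site was Shh-15. It lies 11.2 kb before the *Lmbr1* promoter in an exon of the non-coding *4632411P08Rik* and had 114 fragments in WT and 156 in *Setdb1* KO ESCs (ratio 1.37, 1.07-1.76). The other pairs of the span were Shh-13 and Shh-17, which had 37 and 40 fragments (1.08, 0.674-1.74). The KO-only Shh-16, with 11 fragments, lies 741 bp from Shh-15, the strongest shared site of the window. *Mnx1*, a homeobox gene of motor neurons and the pancreas, had a single site within 25 kb, Shh-18, with 20 and 22 fragments (1.10, 0.573-2.13). The 3 pairs of this boundary span had a median ratio of 1.25 and the 1 pair of the *Shh* side 1.13, against 1.71 and 2.13 at the interior sites Shh-6 and Shh-8. With so few sites this is a description and not a difference between boundary and interior.

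In the flanks, Shh-2, on the outer side of *Rbm33*, was the second strongest site of the window, with 108 and 143 fragments (1.32, 1.02-1.72). Shh-4, in an intron of *Rbm33*, had 38 fragments in WT and 66 in KO (1.74, 1.15-2.66). Shh-1, at the promoter of *Cnpy1*, had 47 and 46 (0.98, 0.637-1.50). To the right of *Mnx1*, Shh-24 had 60 and 87 (1.45, 1.03-2.05) and Shh-26, in *Dnajb6*, had 33 and 53 (1.61, 1.02-2.56). Of the 13 *Setdb1* KO peaks to the right of *Lmbr1* 6 were KO-only (46.2%, 23.2-70.9%, against 28.8% over the whole list). Among them were Shh-19, Shh-25 and Shh-27 with 17, 17 and 23 fragments. Shh-25 lies 576 bp from the shared Shh-24.

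**Figure D2:**
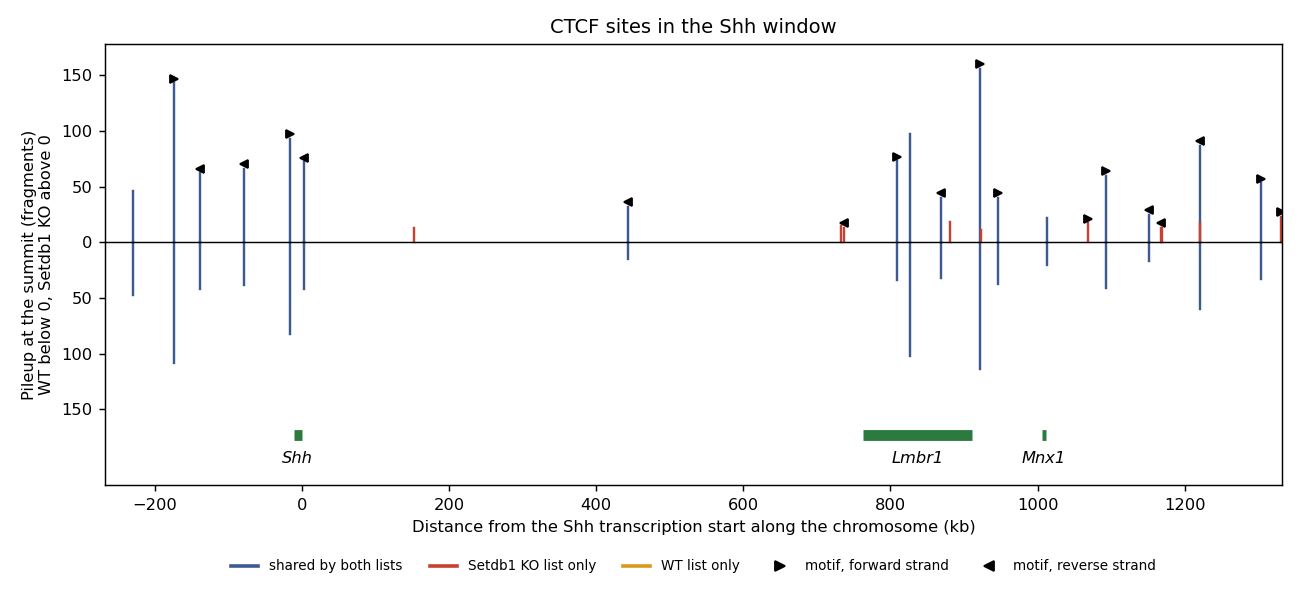
Pileup at the summit (fragments) of each CTCF site of the *Shh* window, with *Setdb1* KO ESCs above and WT ESCs below the zero line, against the distance from the *Shh* transcription start in kb. Colours mark the lists that hold the site, arrowheads the strand of a motif and green bars the genes. The shared sites stand near *Shh*, in and around *Lmbr1* and in the flanks, and Shh-8 stands alone in the interior with 15 and 32 fragments.

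In the *Epha4* window, CTCF was dense over the genes and sparse in the gene-free span. Between *Wnt6* and *Ihh* the *Setdb1* KO list held 21 peaks in 179.8 kb, and from *Ihh* to *Slc4a3*, the last protein-coding gene before *Epha4*, 43 peaks in 610.5 kb. The next 1953 kb, which reach to the *Epha4* promoter, held 18. No peak of either list lay between Epha4-89 and Epha4-90, a distance of 889.7 kb, the longest of the 3 windows.

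*Wnt6*, a Wnt ligand, had 11 shared sites in its body or within 25 kb, and *Ihh*, a Hedgehog ligand of growth plate cartilage, had 4. Epha4-11, at the 3′ end of *Wnt6* in a UTR exon, had 88 and 102 fragments (1.16, 0.863-1.56). Epha4-9, in an intron of *Wnt6*, had 38 and 44 (1.16, 0.733-1.84). Epha4-30, within *Ihh*, had 57 and 61 (1.07, 0.734-1.56), and Epha4-31, 2.71 kb before its promoter, had 36 and 33 (0.92, 0.554-1.51). The interval lay above 1 at 1 of the 11 sites of *Wnt6* and 1 of the 4 of *Ihh*, against 31.5% of pairs over the genome. Near *Wnt6* it was Epha4-5, 22.9 kb before the gene, with 50 and 76 fragments (1.52, 1.05-2.22), and near *Ihh* it was Epha4-32 with 23 and 44 fragments (1.91, 1.13-3.32).

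Over the segment from *Wnt6* to *Ihh* all 15 pairs had a higher pileup in *Setdb1* KO ESCs (90.8% over the genome), but by little. The ratios ran from 1.07 to 1.32 with a median of 1.21. None of the 15 intervals lay above 1, against 31.5% of pairs over the genome. The 11 sites of the segment with a WT pileup of 50 or more had a median ratio of 1.21, against 1.28 at sites of that strength in the genome (quartiles 1.15 and 1.42). The strongest was Epha4-24, at the promoter of the crystallin gene *Cryba2*, with 98 and 112 fragments (1.14, 0.864-1.51). Another 5 peaks were KO-only, with 9 to 23 fragments, and Epha4-10, in an intron of *Wnt6*, was WT-only with 11.

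From *Ihh* to *Slc4a3* the pairs spread more widely. The 34 ratios ran from 0.90 to 2.62 with a median of 1.31. Epha4-56, near *Dnpep*, had 24 fragments in WT and 63 in KO (2.62, 1.62-4.39) and Epha4-37, in an intron of *Nhej1*, from 14 to 35 (2.50, 1.31-5.03). The strongest site of the 3 windows, Epha4-66 in an intron of *Speg*, had 135 and 156 (1.16, 0.912-1.47). At Epha4-69, in *Asic4*, there were 96 and 92 (0.96, 0.712-1.29), and at Epha4-50, a promoter site of *Ptprn*, 21 and 19 (0.90, 0.460-1.77). Strong and weak responders alternated along this gene-rich stretch. No interval lay below 1 there, as at all but 21 of the 41876 pairs of the genome.

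The last 100 kb of genes before the gene-free span, the *Wnt6*-*Ihh* side of the *Epha4* domain, held 5 pairs with a median ratio of 1.26. Epha4-71, in a UTR exon of *Chpf*, had 107 and 150 fragments (1.40, 1.09-1.81), and Epha4-70, in *Asic4*, 53 and 81 (1.53, 1.07-2.20). Epha4-75, in a UTR exon of *Slc4a3* at the edge of the span, had 111 and 134 (1.21, 0.932-1.57). Each of the 5 sites was higher in *Setdb1* KO ESCs, at 1.21 times or more.

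Within the gene-free span the sites formed a block on the side of *Slc4a3* and a thin series towards *Epha4*. The block held 8 shared sites in 377.3 kb, of which 7 had a forward motif, pointing into the domain, and 1 a reverse motif. Epha4-82, the strongest, had 92 and 124 fragments (1.35, 1.02-1.79), Epha4-83 had 44 and 73 (1.66, 1.13-2.47) and Epha4-88 had 40 and 53 (1.32, 0.862-2.05). It also held the 5 KO-only peaks of the span, among them Epha4-84 and Epha4-85 with 26 and 24 fragments, both with a forward motif and the former 100% masked, and the WT-only Epha4-79 with 19. On the *Epha4* side the 5 shared sites Epha4-90 to Epha4-94 were weak, with 14 to 24 fragments in WT and 16 to 37 in *Setdb1* KO ESCs, and 1 had a motif, in the reverse direction. Of these Epha4-93 had the highest ratio, with 15 and 32 fragments (2.13, 1.12-4.24). None of the 5 *Setdb1* KO peaks on this side of the span was KO-only, against 28.8% over the whole list. With 5 peaks this is a description only.

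*Epha4*, a receptor tyrosine kinase for ephrins, had Epha4-94 in its body, with 18 and 22 fragments (1.22, 0.626-2.42), and Epha4-95 1.36 kb before its promoter, with 45 and 76 (1.69, 1.15-2.50). In the 586.2 kb from *Epha4* to *Pax3*, which hold the boundary on that side, the WT list had 11 peaks and the *Setdb1* KO list 13. The median ratio of the 10 pairs was 1.30. Of these 10 sites 5 had a motif on the reverse strand, pointing back towards *Epha4*, 2 on the forward strand, and 3 had no match above the threshold. Epha4-104, the strongest, had 75 and 104 fragments (1.39, 1.02-1.89) with a reverse motif, and 6.33 kb on, Epha4-105 had 56 and 74 (1.32, 0.921-1.91) with a forward motif. Both lie in a cluster of 5 sites over 78.1 kb (Epha4-102 to Epha4-106), whose ratios ran from 1.13 to 1.39. Outside it, Epha4-96 had 40 and 36 fragments (0.90, 0.557-1.45), and the WT-only Epha4-99 had 15.

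*Pax3*, a paired box factor of the neural crest and muscle, had no peak of either list in its body. The peaks within 25 kb of it, both upstream, were KO-only with 15 fragments each, 3.26 kb and 18.8 kb before its promoter. Further out, Epha4-112, 42.6 kb from *Sgpp2*, had 42 fragments in WT and 95 in KO (2.26, 1.56-3.33), and the interval lies above the genome median of 1.36. Up to the edge of the window 4 *Setdb1* KO peaks lay beyond the *Pax3* promoter. Of these 3 were KO-only (75%, 30.1-95.4%, against 28.8% over the whole list), with 15, 15 and 22 fragments. WT signal too low to be listed may lie at them, and with 4 peaks the share is a description only.

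**Figure D3:**
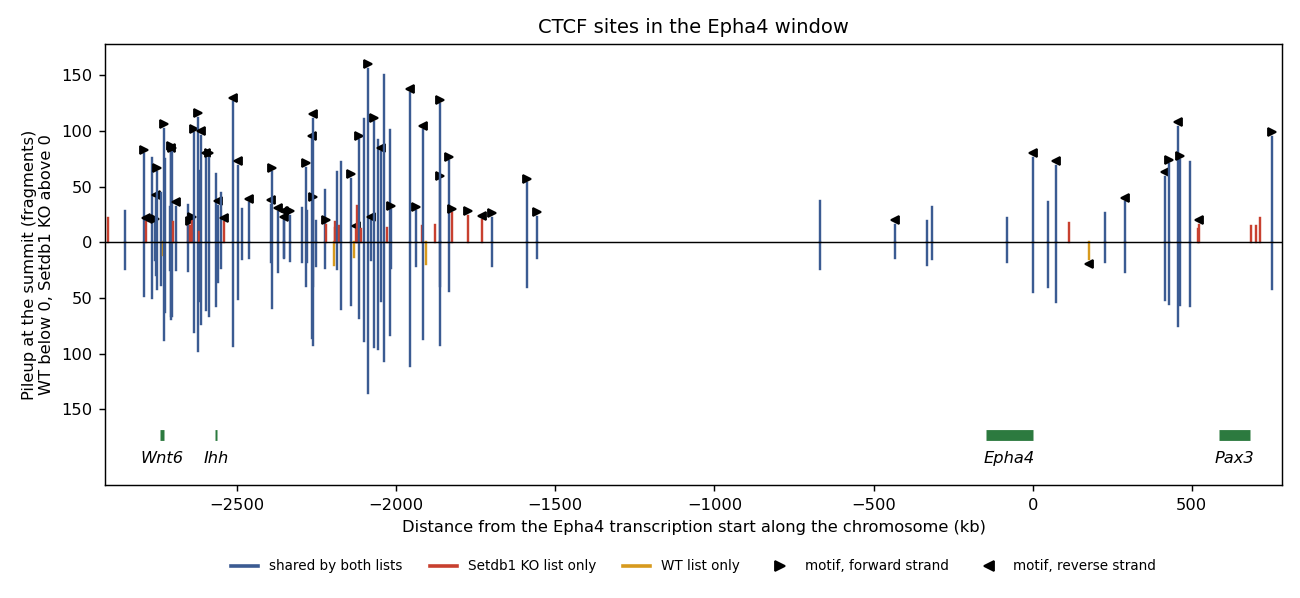
Pileup at the summit (fragments) of each CTCF site of the *Epha4* window, with *Setdb1* KO ESCs above and WT ESCs below the zero line, against the distance from the *Epha4* transcription start in kb. Colours mark the lists that hold the site, arrowheads the strand of a motif and green bars the genes. Sites crowd the genes around *Wnt6* and *Ihh*, an interval of 889.7 kb holds none, and the sites on both sides of it are mostly shared.

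In the *Sox9* window, *Kcnj2*, a potassium channel, and *Sox9*, a transcription factor of cartilage and testis, are separated by 1705 kb without another protein-coding gene. Neither gene had a peak in its body. Sox9-9, 1.34 kb before the *Kcnj2* promoter, had 35 and 52 fragments (1.49, 0.950-2.35), and Sox9-27, 2.23 kb before that of *Sox9*, 57 and 78 (1.37, 0.960-1.96). The promoter-proximal sites of both genes were shared, with ratios close to the genome median.

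Between the genes the WT list held 15 peaks and the *Setdb1* KO list 18, and each WT peak was matched (WT-only over the whole list: 3.22%). The 15 ratios had a median of 1.56 (quartiles 1.43 and 1.95), and the ratio of summed pileups was 1.59 (1.42-1.78). At the 13 of these sites with a WT pileup under 50 the median was 1.61, against 1.44 at sites of that strength in the genome (quartiles 1.20 and 1.75). The exact interval lay above 1 at 8 of the 15 sites (31.5% of pairs over the genome) and above the genome median at 3 (5.49%). With 15 sites these counts are a description only. The pileup was lower in *Setdb1* KO ESCs at 1 site, Sox9-11.

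The cluster around 1250 kb before *Sox9* holds the turn of motif direction shown in the sequences above. Going towards *Sox9*, Sox9-10, Sox9-11 and Sox9-12 are on the reverse strand, pointing to *Kcnj2*, and Sox9-13 and Sox9-14 on the forward strand, pointing to *Sox9*. The turn falls in the 3.61 kb between Sox9-12 and Sox9-13. Sox9-13 had 32 fragments in WT and 69 in KO (2.16, 1.40-3.39), Sox9-14 from 38 to 61 (1.61, 1.05-2.47) and Sox9-12 from 31 to 50 (1.61, 1.01-2.61). Sox9-11 had 37 and 34 (0.92, 0.560-1.51), and Sox9-10 had 26 and 40 (1.54, 0.916-2.63). All 5 sites lie outside masked sequence (0%), and each was present in both lists.

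Nearer to *Sox9*, Sox9-17, Sox9-19 and Sox9-20, the next sites with a motif, have it on the forward strand, and the mixed series of Sox9-23 to Sox9-26 follows. Sox9-24, 191.2 kb before *Sox9*, had 22 fragments in WT and 62 in KO (2.82, 1.71-4.81), and Sox9-23, 31.1 kb further out, from 19 to 49 (2.58, 1.49-4.64). Sox9-19, 631.1 kb before the gene, had 15 fragments in WT and 32 in KO (2.13, 1.12-4.24). Sox9-26, 63.5 kb before *Sox9*, had 41 and 47 (1.15, 0.738-1.79). The span also held the KO-only peaks Sox9-15 (26 fragments), Sox9-16 (24) and Sox9-25 (19), none of which had a motif above the threshold.

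To the left of *Kcnj2*, Sox9-3 had the highest ratio of the 3 windows, with 16 fragments in WT and 55 in *Setdb1* KO ESCs (3.44, 1.94-6.43). It lies 15.1 kb from *Map2k6*, in a group of 3 sites within 3.85 kb. The other two, Sox9-1 and Sox9-2, had 22 fragments in WT and 36 in KO (1.64, 0.937-2.92) and 34 and 63 (1.85, 1.20-2.90). Sox9-4, 32.2 kb from Sox9-3, was WT-only with 19 fragments. Sites with a ratio above 1 and a site missing from the *Setdb1* KO list thus lay side by side.

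To the right of *Sox9* the first site, Sox9-28, 229.3 kb from the *Sox9* start, had the lowest ratio of the 3 windows, with 26 and 20 fragments (0.77, 0.407-1.43). The remaining sites crowd the non-coding *2610035D17Rik* and *Slc39a11*, a zinc transporter gene. Within 61.2 kb of *Slc39a11*, Sox9-42 had 38 fragments in WT and 102 in KO (2.68, 1.83-4.01), Sox9-43 from 23 to 59 (2.57, 1.56-4.35), Sox9-45 from 53 to 91 (1.72, 1.21-2.46) and Sox9-46 from 15 to 35 (2.33, 1.24-4.60). Sox9-44, among them, had 33 and 48 (1.45, 0.915-2.34). The same stretch held 3 of the 4 KO-only peaks of the window with the highest fold enrichment: Sox9-47, Sox9-48 and Sox9-49, with 33, 45 and 23 fragments. This stretch was picked with its values known, so that its summed ratio of 2.07 is a description. Elsewhere in the same gene Sox9-37 had 73 and 66 (0.90, 0.638-1.28) and Sox9-55 75 and 69 (0.92, 0.654-1.29). The strongest WT sites of the window were Sox9-59, at the promoter of *Cog1*, with 87 and 107 (1.23, 0.918-1.65), and Sox9-63, in *Cpsf4l*, with 79 and 111 (1.41, 1.04-1.90).

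**Figure D4:**
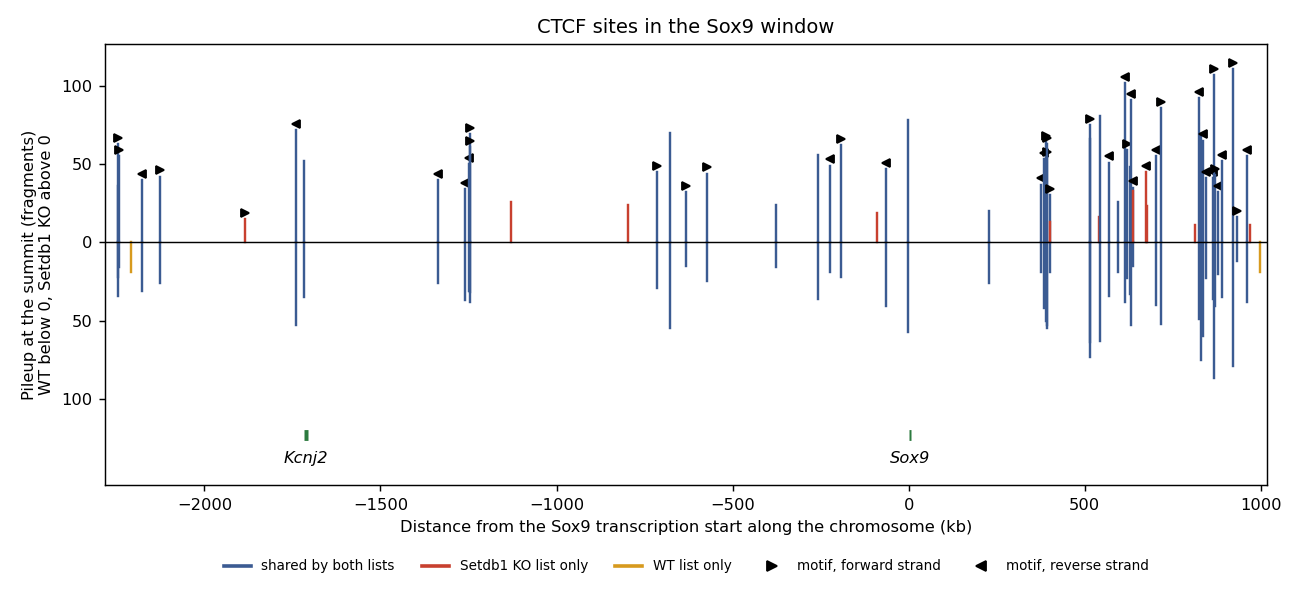
Pileup at the summit (fragments) of each CTCF site of the *Sox9* window, with *Setdb1* KO ESCs above and WT ESCs below the zero line, against the distance from the *Sox9* transcription start in kb. Colours mark the lists that hold the site, arrowheads the strand of a motif and green bars the genes. The motifs turn from reverse to forward in the cluster around 1250 kb before *Sox9*, and the sites right of *Sox9* are the densest.

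**Figure D5:**
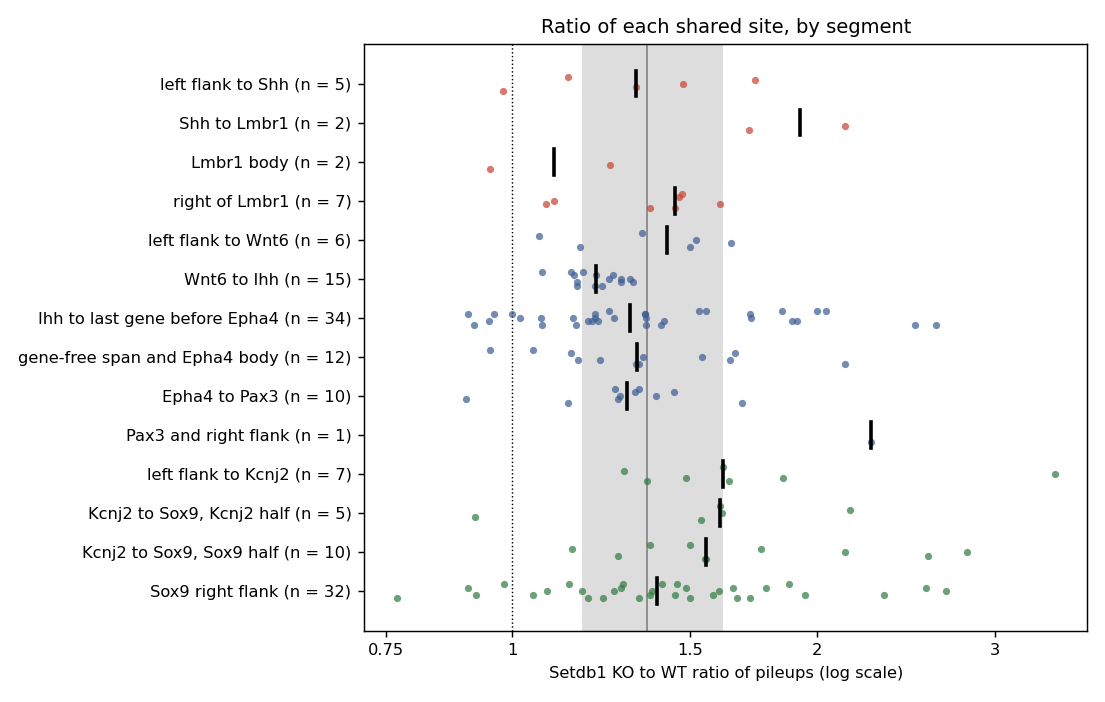
*Setdb1* KO to WT ratio of pileups (x axis, log scale) of the 148 paired sites, by segment between member genes. Each point is a site, black bars are medians, the dotted line marks a ratio of 1, and the grey band and line show the quartiles and the median of the genome (1.17, 1.61 and 1.36). The points of *Wnt6* to *Ihh* lie close together around 1.21. Every segment of the *Sox9* window with pairs has its median right of the genome median, as do some segments of the other windows.

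The fold enrichment, the authors' ratio of pileup to local background, gave another direction at some of these sites, since the background also differed. It was lower in *Setdb1* KO ESCs at 34 of the 148 pairs (23.0%, as over the genome, 23.0%), at 27 of which the pileup was higher. Shh-5 is one of them, with a fold enrichment of 26.8 in WT and 19.3 in *Setdb1* KO ESCs. In the *Epha4* window the median ratio of fold enrichments was 1.19, against 1.28 for pileups. Over the genome it was 1.31, against 1.36 for pileups.

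A CTCF motif was found at 108 of the 151 shared sites (71.5%, 63.9-78.1%) and at 16 of the 48 KO-only sites (33.3%, 21.7-47.5%), against 64% and 36% over the genome. These intervals do not overlap, but the motif was learned from shared peaks alone, which can favour the shared sites. The KO-only sites were also weaker, with a median pileup of 16 fragments against 55.5 at the shared pairs. The 2 shares are therefore a description only. When peaks of a fold enrichment under 5 were left out and the lists matched anew, the shares were 72.4% (64.1-79.5%) and 58.3% (42.2-72.9%). Over the genome they were then 68.4% and 46.0%. The intervals of the windows then overlap, but that KO-only set also holds peaks whose WT partner was left out. It is therefore not the stronger part of the 48 KO-only sites. The KO-only peaks with a motif were 4 of 10 in the *Shh* window, 10 of 27 in the *Epha4* window and 2 of 11 in the *Sox9* window. Both KO-only motifs of the last window belong to Sox9-7 and Sox9-48.

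Sites in repeat sequence had higher ratios in the windows, as in the genome. Of the shared sites 45 of 151 (29.8%, 23.1-37.5%) were masked over more than 50% of the 101 bp around the summit, against 24.7%, and of the KO-only sites 15 of 48 (31.2%, 19.9-45.3%), against 41.4%. The median ratio was 1.58 at the 44 masked pairs and 1.28 at the 104 others (genome 1.52 and 1.32). The ratio was 2 or more at 15 pairs (10.1%, against 9.39% over the genome), and 9 of these 15 were masked (60%, 35.7-80.2%), against 54.9% of such pairs over the genome. Reads that aligned to more than 1 place were discarded by the authors, so that repeat copies too alike to be told apart hold no signal in the lists.

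Several of the motifs share 1 run of letters. Sox9-3, Sox9-23 and Sox9-42, printed above, all carry CCAGAAGAGGG, as do Shh-8 and Shh-11, and this run of 11 letters, which overlaps the CTCF motif, was searched on both strands within 50 bp of every *Setdb1* KO summit. It was found at 31 of the 151 shared and 8 of the 48 KO-only sites (20.5% and 16.7%, against 15.6% and 20.3% over the genome), and at 16.9% of all *Setdb1* KO peaks. Of the 39 sites with the run, 37 were mostly masked. The median ratio was 1.58 at the 30 pairs with it and 1.31 at the 118 pairs without it (genome 1.55 and 1.33). The run was taken from sites known to have a high ratio, so that the values of the windows are a description. It was not present at Sox9-13 or Sox9-24, which carry other motif letters.

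The 7 WT-only peaks were all weak, with 11 to 20 fragments. Besides Epha4-10, Epha4-79, Epha4-99 and Sox9-4 they were Epha4-53, at the promoter of *Dnpep* with 20 fragments, Epha4-60, at a promoter of *Speg* with 13, and Sox9-67, in a UTR exon of *Sdk2* with 19. Of these Epha4-99 alone had a motif above the threshold. The strongest KO-only peaks were Sox9-48, with 45 fragments and a fold enrichment of 11.03, and Epha4-62, in *Speg*, with 33 and 8.53. No WT-only peak lay between *Shh* and *Lmbr1*, with 2 WT peaks, or between *Kcnj2* and *Sox9*, with 15. The WT-only share of the whole list was 3.22%, so that with so few WT peaks this is a description only.

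The gene families of *Shh*, *Epha4* and *Wnt6* were also counted over the genome. A *Setdb1* KO peak within 10 kb was found at 17 of 19 genes of the Hedgehog pathway, 21 of 22 Eph receptors and ephrins and 16 of 19 Wnt ligands, against 75.3% of 21938 protein-coding genes. A KO-only peak was found at 9, 8 and 6 of them, against 41.9%. Among the Hedgehog genes, *Shh* and *Ihh* had none, while *Boc*, which encodes a co-receptor, had 3 and *Hhip*, which encodes an inhibitor of the ligands, had 2 KO-only peaks and no WT peak. *Epha4* and *Wnt6* likewise had no KO-only peak within 10 kb, whereas *Epha6* and *Wnt5b* had 3 each.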

How the data were processed

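CTCF ChIP-seq peak lists of WT and *Setdb1* KO ESCs were analysed (1 library each). The second CTCF libraries, other cell lines and other assays were not analysed here. Reads were mapped by the authors on mm10 with Bowtie 1.2, keeping reads with 1 best place, removed duplicates with Picard and called peaks per library with MACS2 2.1.0 (q of 0.05, genome size 2.43e+09). The deposited fold enrichment is a ratio of pileup to background, each with a pseudocount of 1. The deposited p-values and q-values are -log10 values. The deposited score is -log10 q times 10 as a whole number, and the last deposited column is the summit offset.

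For each peak, the fold enrichment and Poisson p gave its pileup and background (100% of peaks, tolerance 0.001). The backgrounds gave 27.4 M tags for WT and 27.6 M for *Setdb1* KO, on which the counting error rests. Ratios have exact Clopper-Pearson and shares Wilson 95% intervals, which cover counting error only. No p-value was computed.

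The motif was built from 1000 shared peaks, with the 99th percentile of control windows, 1 kb left of each summit, as threshold. The gene models were those of GENCODE vM21 (promoter: 1 kb on each side of a start), and the GRCm38 genome and its soft-masking from RefSeq. Python 3.11.15, pysam 0.24.0, scipy 1.17.1, numpy 2.4.6, samtools 1.23.1, pandas 2.3.3 and matplotlib 3.10.9 were used. Solving, overlap and intervals were tested on simulated data. The windows, member genes and gene lists were chosen with earlier results of these data known. Named sites are, per window, the 6 with the highest WT pileup, the 4 highest and 4 lowest ratios, the 5 KO-only peaks with the highest fold enrichment, every WT-only peak, those within 25 kb of a member gene and the strongest between member genes, given where they bear on a result. Further named sites, the run of 11 letters and the stretch of *Slc39a11* were chosen after their values were seen.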

Additional observations from a re-analysis of the deposited data

How the results depend on the processing

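No paired analysis was possible because 1 library was analysed per condition. The medians of the *Shh* and *Sox9* windows stayed within a set range under every alternative run. That range was the 95% interval of the window's ratio of summed pileups, scaled to the median, since no interval of the median itself was computed. In the *Epha4* window the median was 1.19 for the ratio of fold enrichments. The genome median also fell with this measure, from 1.36 to 1.31. Of the counts, the KO-only peaks of the *Shh* window (10) were 4 with a fold enrichment of at least 5, 4 with a -log10 q of at least 5, 0 with lists of equal length and 5 in the window without flanks. The *Sox9* window had 14 in place of 11 with a fold enrichment of at least 5 and 10 with a -log10 q of at least 5 (16.1% against 26.6% over the genome). With lists of equal length 4 were left in the *Epha4* window (27) and 4 in the *Sox9* window (11), which had 3 without flanks. The genome share was 11.7% with lists of equal length, since the *Setdb1* KO list is then cut to its strongest peaks. Motif shares moved with the threshold: the shared share was 89.4% and the KO-only share 58.3% at the 95th percentile, 18.5% and 2.08% at the highest percentile tried, and 53.6% and 20.8% within 100 bp. Over the genome they were, in the same order, 83.2% and 57.4%, 16.1% and 3.80%, and 47.7% and 26.7%. With a fold enrichment of at least 5 the shared share was 72.4% (92 of 127 peaks) and the KO-only share 58.3% (21 of 36), with overlapping intervals. Over the genome these shares were 68.4% and 46.0%. After each filter on fold enrichment, q or list length the lists were matched anew. A peak counted as KO-only there may therefore overlap a WT peak that was left out. The 36 peaks are thus not simply the stronger ones of the 48 KO-only peaks, and their motif share is that of a mixed set. In all of the motif settings the shared share stayed above the KO-only share. Each setting used the motif learned from shared peaks, so that this order is a description only. Depth limits single sites: the interval of the ratio lay above 1 at 45 of 148, against 31.5% of pairs over the genome.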
